A study of Homo sapiens with 6 samples.

Results

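The 44 genes described here are those that the KEGG annotation of the deposited table places under aminoacyl-tRNA biosynthesis, out of 29153 genes listed. No mitochondrially encoded tRNA gene carried the annotation. To find transcripts that change when LINC01977, a long noncoding RNA, is targeted, the RNA of HepG2 cells was sequenced. HepG2 is an established line from a human liver tumour. Cells received lentivirus carrying a control hairpin (sh-NC) or a hairpin against LINC01977 (sh-LINC01977) for 72 h, with 3 libraries in each group. By the study's methods, infected cells were selected with puromycin. The sh-LINC01977 libraries all carry 1 hairpin, called sh3 in their titles, and nothing in the labels says whether libraries came from separate cultures, so p-values measure only the spread between these libraries.

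Aminoacyl-tRNA synthetases join each amino acid to its tRNA and thereby set the genetic code at every round of translation. Most amino acids have 1 enzyme for cytosolic and another, also encoded in the nucleus, for mitochondrial translation, and some of the cytosolic enzymes sit in a large multisynthetase complex. When charged tRNA runs short, the kinase GCN2 raises translation of the transcription factor ATF4, whose known targets include many cytosolic synthetase genes.

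The 44 members comprise 19 cytosolic synthetase genes, 2 genes whose products serve both compartments (GARS for glycine and KARS for lysine), and 17 mitochondrial synthetase genes. A further 4 are auxiliary mitochondrial genes. GATB, GATC and QRSL1 encode the amidotransferase that makes glutaminyl-tRNA in mitochondria, and MTFMT formylates the initiator methionyl-tRNA. The last 2, PSTK and SEPSECS, convert seryl-tRNA into selenocysteinyl-tRNA. All 44 passed the filter of a mean FPKM (fragments scaled to transcript length and library depth) of at least 0.5 that left 13452 genes to be tested. Member counts in 1 library ran from 163 to 29338.

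Total counts ran from 49929024 to 60441515 per library, of which the members took 0.457% to 0.489%. LINC01977 itself was counted 4, 0 and 16 times with the control hairpin and 0, 0 and 4 times with the hairpin against it, so its reduction was not detectable (log2 fold change -2.12, SE 1.96, adjusted p = 0.580 by edgeR's quasi-likelihood test on all listed genes), and groups follow the labels. The study reports that knockdown in its HepG2 line was verified by qRT-PCR, which counts this low cannot repeat. Markers of hepatocytes and HepG2 were present in every library, with a summed level of 4447 to 4816 FPKM in sh-NC and 3131 to 3197 FPKM in sh-LINC01977 libraries. Of these 10 markers, 7 were called lower (adjusted p under 0.05, edgeR), beside 8.07% of all tested genes. Of 10 markers of fibroblasts, endothelium and blood cells, 6 had a row in the table, and these summed to 1.07 to 1.68 FPKM in sh-NC and 0.964 to 1.12 FPKM in sh-LINC01977 libraries. The part of these marker differences in any result given here was not tested, and in bulk RNA fewer cells of a type and less RNA per cell cannot be told apart.

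Most of these genes differed little between groups. Of the 44 members, 3 passed an adjusted p under 0.05. TARS, the cytosolic threonyl-tRNA synthetase, fell, and SEPSECS, which makes selenocysteinyl-tRNA, was among those that rose. This is 6.82% of members, beside 15.1% of all tested genes called in either direction by edgeR's quasi-likelihood test, adjusted by the Benjamini-Hochberg method over all 13452 genes. By direction, 2 members rose, where 7.05% of all tested genes did, and 1 fell, where 8.07% did. The largest of the 3 changes was a fold of 1.36, and 0 members had the fold change of 2 with an unadjusted p of at most 0.05 that the study's methods used as thresholds, which 2.6% of tested genes met. At an unadjusted p under 0.05 by edgeR there were 8 of 44 members, beside 30.5% of all tested genes.

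**Figure D1:**
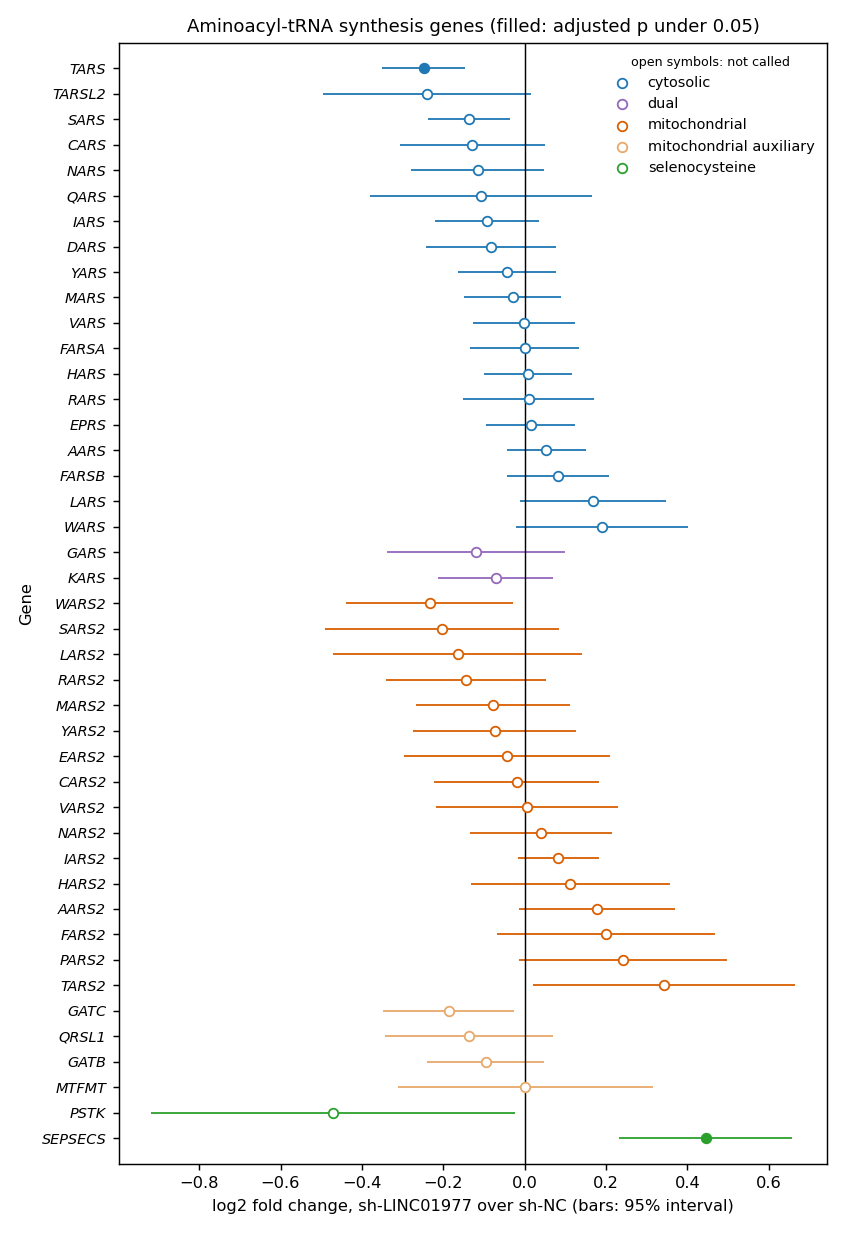
Log2 fold change of 43 of the 44 genes (horizontal axis, sh-LINC01977 over sh-NC, positive values higher in sh-LINC01977), grouped by compartment, with bars for the 95% interval of the edgeR fit and filled points for an adjusted p under 0.05. The filled points are TARS at -0.25 and SEPSECS at 0.44, and the other 41 points lie between -0.47 and 0.34.

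The estimated changes of the members were small: their median absolute log2 fold change was 0.11, against 0.18 over all tested genes, which describes the group and was not tested. The 2 sets were not matched for level, with a median of 9.90 FPKM for the members and 4.14 FPKM for all tested genes. The median signed log2 fold change was -0.036 over the members and -0.0010 over all tested genes, with 18 members positive and 26 negative. The split by sign depends on scaling, since with library totals in place of TMM factors 24 were positive and 20 negative. In 13 members the 3 libraries of 1 group all lay above the 3 of the other, 6 higher and 7 lower in sh-LINC01977. That is 29.5% of members, beside 37.1% of all tested genes.

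For the 41 genes that were not called, the 95% intervals of the log2 fold change reached from -0.92 to 0.67. The interval lay within a fold of 1.5 in 39 of them and within a fold of 2 in all 41, so a doubling or halving of any of these transcripts was outside the interval. The lowest adjusted p among them was 0.0796 by edgeR's quasi-likelihood test, for SARS, which charges serine tRNA in the cytosol. SARS stood at 182.2, 188.0 and 190.1 CPM (counts scaled to library depth with TMM factors) in the sh-NC libraries and at 165.1, 172.3 and 172.3 CPM in the sh-LINC01977 libraries. Its groups did not overlap, and the fitted log2 fold change was -0.14.

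Cytosolic synthetase genes were centred near 0. Of 19, 1 fell and 0 rose, beside 8.07% and 7.05% of all tested genes. In sign, 7 had a positive and 12 a negative log2 fold change, and the median was -0.029. With library totals this median was 0.037, so its sign is set by the scaling. The same genes summed to 3275 ± 32.3 CPM in sh-NC and 3202 ± 32.4 CPM in sh-LINC01977 libraries (SD, n = 3), whereas their summed FPKM was 507 ± 10.4 and 518 ± 3.52. The direction of the sum thus differed between the CPM and FPKM scales.

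TARS (ENSG00000113407, hg38 chromosome 5, 33440696 to 33469539, plus strand) charges threonine tRNA in the cytosol. Its level was 175.7, 176.4 and 176.3 CPM in the sh-NC libraries and 142.9, 151.5 and 150.6 CPM in the sh-LINC01977 libraries. Every sh-LINC01977 library lay below every sh-NC library, and the sh-NC libraries were nearly level with each other. The log2 fold change was -0.25 with an SE of 0.043 (adjusted p = 0.0122, edgeR's quasi-likelihood test), a decrease of 15.8%. TARSL2, a second cytosolic threonyl-tRNA synthetase, had a mean level of 2.26 FPKM against 23.0 FPKM for TARS, and a similar estimate without passing the test. It stood at 12.8, 15.4 and 13.4 CPM in the sh-NC libraries and at 11.05, 11.9 and 12.3 CPM in the sh-LINC01977 libraries, with a log2 fold change of -0.24 (adjusted p = 0.187, edgeR).

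TARS2, which charges threonine tRNA in mitochondria, had an estimate of the opposite sign. Its values were 30.7, 43.7 and 37.2 CPM in the sh-NC libraries and 46.7, 43.4 and 51.4 CPM in the sh-LINC01977 libraries. The groups overlapped, because the second sh-NC library lay just above the second sh-LINC01977 library. The log2 fold change was 0.34 with an SE of 0.14 (adjusted p = 0.143, edgeR), so TARS2 was not called.

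**Figure D2:**
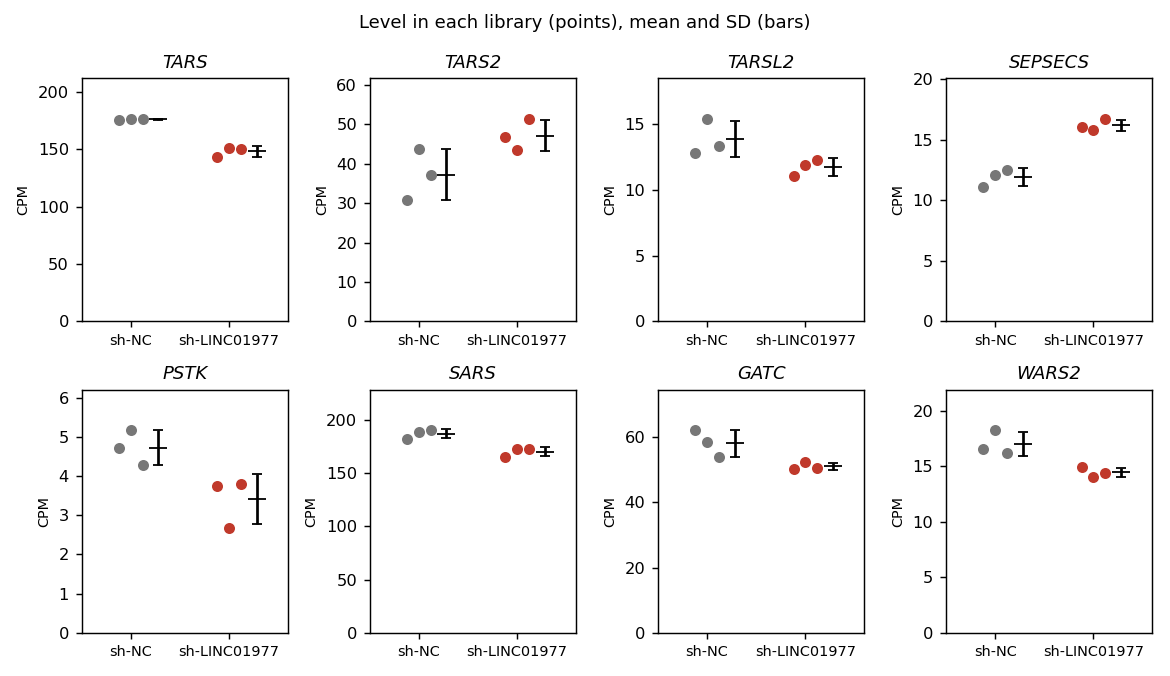
Level in CPM (vertical axes, starting at 0, each panel on its own scale) of 8 genes in each of the 3 sh-NC (grey) and 3 sh-LINC01977 (red) libraries, with the group mean and SD as bars. The groups are apart for TARS, TARSL2, SEPSECS, PSTK, SARS, GATC and WARS2 and overlap for TARS2.

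Of 17 mitochondrial synthetase genes, 1 was called higher and 0 lower, beside 7.05% and 8.07% of all tested genes. Their median log2 fold change was 0.0065, with 9 positive. The median was 0.074 with library totals. Their summed level was 844 ± 25.2 CPM in sh-NC and 879 ± 8.96 CPM in sh-LINC01977 libraries, and on the FPKM scale 168 ± 5.17 and 183 ± 0.766 (SD, n = 3). On both scales the sh-LINC01977 mean was higher. In CPM the groups overlapped, since the second sh-NC library, at 872, lay above the third sh-LINC01977 library, at 869. In FPKM they did not, with sh-NC libraries at 164 to 174 and sh-LINC01977 libraries at 182 to 184.

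The genes of the selenocysteine branch were the least abundant of the set and had the largest estimates in either direction. SEPSECS (ENSG00000109618, hg38 chromosome 4, 25120014 to 25160442, minus strand) performs the last step, the conversion of phosphoserine to selenocysteine on the tRNA. It had 11.1, 12.1 and 12.5 CPM in the sh-NC libraries and 16.1, 15.8 and 16.7 CPM in the sh-LINC01977 libraries. The groups were apart, and the log2 fold change was 0.44 with an SE of 0.089 (adjusted p = 0.0194, edgeR's quasi-likelihood test). The call was lost when any 1 of 5 libraries was left out, with adjusted p values up to 0.0695 by edgeR, and held only when the third sh-NC library was the one omitted, while the log2 fold change stayed between 0.39 and 0.49. PSTK, the kinase of the preceding step, had 4.7, 5.2 and 4.3 CPM in sh-NC and 3.7, 2.7 and 3.8 CPM in sh-LINC01977 libraries. Its groups did not overlap, its log2 fold change was -0.47 with an SE of 0.19, and it was not called (adjusted p = 0.146, edgeR). PSTK had the lowest counts of the set, between 163 and 257 per library, and it overlaps IKZF5 and C10orf88 on the opposite strand.

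The auxiliary mitochondrial genes had 0 of 4 calls, beside 15.1% of all tested genes. GATC, a subunit of the glutamyl-tRNA amidotransferase, had 62.1, 58.6 and 53.9 CPM in sh-NC and 50.3, 52.4 and 50.6 CPM in sh-LINC01977 libraries. Its sh-LINC01977 libraries were all lower, and the adjusted p was 0.117 by edgeR (log2 fold change -0.19). The 4 genes together summed to 138 ± 5.11 CPM in sh-NC and 126 ± 3.56 CPM in sh-LINC01977 libraries. Their summed FPKM was 20.8 ± 0.677 in sh-NC and 19.9 ± 0.754 in sh-LINC01977 libraries (SD, n = 3). The groups were apart in CPM but overlapped in FPKM, where the third sh-NC library had 20.2 and the third sh-LINC01977 library 20.5.

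Grouping by enzyme architecture gave no larger shift. The 8 cytosolic or dual genes whose products belong to the multisynthetase complex had 0 calls and a median log2 fold change of -0.050, and the 13 outside it had 1 call and a median of -0.044. Class I synthetases, whose catalytic domain is a Rossmann fold, had 0 of 18 called with a median of -0.044. Class II synthetases, which use an antiparallel fold and include TARS, had 1 of 19 called higher and 1 lower, with a median of 0.0080. Among all tested genes 15.1% were called, 7.05% higher and 8.07% lower. The counts in these small groups were not tested against that share.

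For each amino acid with separate cytosolic and mitochondrial enzymes, the ratio of the partners within a library does not depend on how libraries are scaled. Among 17 such pairs, in which TARS2 and FARS2 recur, the log2 ratio of mitochondrial to cytosolic CPM did not overlap between groups in 8. Of these, 5 were higher in sh-LINC01977. The share among other gene pairs was not computed, and for levels of single genes it was 37.1% of all tested genes. The exact two-sided permutation test gave p = 0.1 for each of the 8 pairs, the smallest that 3 libraries against 3 can give. After Benjamini-Hochberg adjustment over the 17 pairs this was 0.212, so no pair could pass. TARS2 over TARS had the largest difference, with a log2 ratio of -2.26 ± 0.25 in sh-NC and -1.66 ± 0.13 in sh-LINC01977 libraries (SD, n = 3), a difference of 0.60. The largest difference in the other direction was that of tryptophan, where WARS2 over WARS had -2.13 ± 0.19 in sh-NC and -2.55 ± 0.11 in sh-LINC01977 libraries. WARS, which interferon-gamma induces in many cells, had a log2 fold change of 0.19 (adjusted p = 0.200, edgeR), and WARS2 one of -0.23 (adjusted p = 0.121, edgeR).

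Levels differed far more between genes than between groups. Averaged over the 6 libraries, AARS, the alanyl-tRNA synthetase, was the most abundant member at 83.6 FPKM, followed by GARS at 55.8 FPKM, KARS at 52.2 FPKM and IARS2, the mitochondrial isoleucyl-tRNA synthetase, at 52.1 FPKM. In FPKM, GARS, KARS and IARS2 did not differ beyond the spread over libraries. The median level was 27.2 FPKM for cytosolic and 7.92 FPKM for mitochondrial genes, and PSTK was lowest at 0.530 FPKM. On a second scale, CPM per kilobase of the longest coding transcript, AARS, GARS and KARS kept the first 3 ranks, while IARS2 went from rank 4 to rank 7 and SARS from rank 7 to rank 4. In AARS the level was 80.2 ± 2.18 FPKM in sh-NC and 87.0 ± 0.847 FPKM in sh-LINC01977 libraries (SD, n = 3), while its fitted log2 fold change from counts was 0.053 (adjusted p = 0.421, edgeR).

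**Figure D3:**
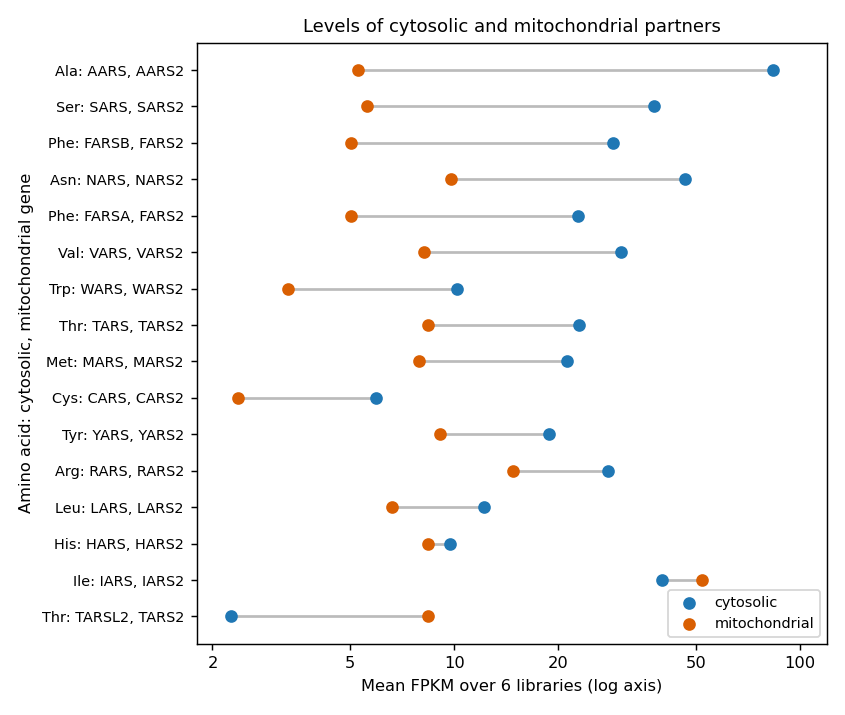
Mean level over the 6 libraries in FPKM (horizontal log axis) of the cytosolic (blue) and mitochondrial (orange) gene for 16 of the 17 pairs, joined by a line and ordered by their ratio. The cytosolic gene lies to the right in 14 of those shown, and the mitochondrial gene in IARS2 with IARS and in TARS2 with TARSL2.

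The cytosolic gene was above its mitochondrial partner in all 6 libraries for 15 of 17 pairs in FPKM. The ratio was widest for alanine, with AARS at 83.6 FPKM and AARS2 at 5.27 FPKM. HARS and HARS2, the histidine genes, which are adjacent and overlap, were close in FPKM, at 9.74 and 8.39, but had a ratio of 2.06 in CPM per kilobase of the longest coding transcript. The exceptions were TARS2, at 8.42 FPKM against 2.26 FPKM for TARSL2, and IARS2. IARS2 was 1.31 ± 0.0932 times IARS in FPKM (SD, n = 6), but 0.959 times IARS in CPM per kilobase of the longest coding transcript, so their order depends on the transcript length assumed.

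Promoter sequence was examined for the letters of the composite element through which ATF4 and C/EBP factors bind, TGATGNAA, on both strands. RefSeq promoter windows (GRCh38.p14) were at hand for 34 of the 44 members, not including SEPSECS. The element occurred in 8 of 34 members (23.5%) and in 4.457% of 27305 genes. Of 16 cytosolic or dual genes 7 held it, and of 14 mitochondrial genes 1, YARS2. The matches are printed with 30 bases each, 5′ to 3′ on the strand of the gene with the element in capitals, so that the 7 cytosolic or dual genes can be compared with each other and with YARS2. They lie at chr16:70289675-70289704 (AARS), chr11:3057407-3057436 (CARS), chr7:30594834-30594863 (GARS), chr9:92293692-92293721 (IARS), chr12:57488053-57488082 (MARS), chr18:57621804-57621833 (NARS), chr5:33440956-33440985 (TARS) and chr12:32756076-32756105 (YARS2).
AARS: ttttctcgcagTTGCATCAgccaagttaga
CARS: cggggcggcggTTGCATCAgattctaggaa
GARS: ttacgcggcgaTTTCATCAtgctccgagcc
IARS: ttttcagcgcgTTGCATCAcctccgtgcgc
MARS: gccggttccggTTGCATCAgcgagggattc
NARS: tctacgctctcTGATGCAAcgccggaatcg
TARS: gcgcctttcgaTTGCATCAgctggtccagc
YARS2: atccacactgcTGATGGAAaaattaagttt

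A match is a description of letters and not of binding. The 7 cytosolic or dual genes with the element had a median log2 fold change of -0.12, with 6 negative and 1 called (TARS), and the 9 without it a median of 0.0080, with 4 negative and 0 called. With library totals the medians were -0.050 and 0.074, with 5 of 7 and 3 of 9 negative. The difference between these genes was not tested, and 15.1% of all tested genes were called. The E-box bound by MYC, CACGTG, occurred in 4 of 34 members (11.8%, against 8.775% of all genes), the ETS element CCGGAAGT in 8 (23.5%, against 4.948%) and the NRF1 element in 1 (2.94%, against 1.516%). Elements were shared: CARS, NARS and TARS held the ATF4 and C/EBP element and the ETS element, and IARS the former and the E-box.

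A list of ATF4 and genes that it is known to induce was read beside the members. Of 28 listed, 26 were tested, and 10 fell and 1 rose, beside 8.07% and 7.05% of all tested genes. The median log2 fold change of the list was -0.17, against -0.0010 over all tested genes. ATF4 itself had 721.5, 726.2 and 726.6 CPM in sh-NC and 576.5, 569.6 and 569.8 CPM in sh-LINC01977 libraries. The groups were well apart (log2 fold change -0.34, SE 0.031, adjusted p = 0.0015, edgeR's quasi-likelihood test). SLC7A5, which imports leucine and other large amino acids, fell by 0.73 on the log2 scale, and SLC3A2, its heavy chain, fell by 0.39. ATF5, a related transcription factor, fell by 0.68, and CEBPG, a C/EBP partner of ATF4, fell by 0.34.

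Within the same list, MTHFD2, a mitochondrial folate enzyme, rose by 0.23 (adjusted p = 0.0474, edgeR), a call that was lost when any library but the second sh-LINC01977 library was left out (adjusted p up to 0.123, edgeR). ASNS, asparagine synthetase, had a log2 fold change of -0.014 (adjusted p = 0.928, edgeR), and its sign changed with scaling. DDIT3, the stress factor CHOP, fell by 0.35, and it overlaps MARS in the genome, so that reads there cannot be told apart without strand. Its call was lost when any 1 library was left out (adjusted p up to 0.0839, edgeR). TRIB3, a pseudokinase of the same response, was not called and stood at 161, 170 and 170 CPM in sh-NC and at 156, 132 and 72.9 CPM in sh-LINC01977 libraries, with the third sh-LINC01977 library far below the rest. The count of 10 lower genes went to 6 when the second sh-NC, the third sh-NC or the second sh-LINC01977 library was left out. The cytosolic synthetase genes, with 1 of 19 called lower, are themselves outside this list.

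**Figure D4:**
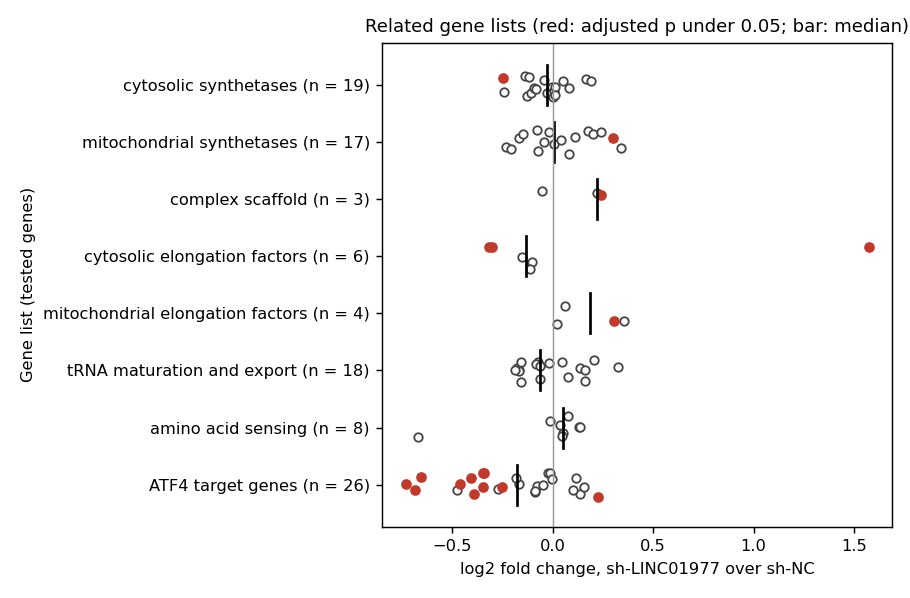
Log2 fold change (horizontal axis, sh-LINC01977 over sh-NC) of each tested gene in the cytosolic and mitochondrial synthetase groups and in 6 related lists (rows), with red points for an adjusted p under 0.05 and a bar at the median. The synthetase rows are centred near 0, the ATF4 row has a median of -0.17, and EEF1A2 stands alone at 1.57.

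Among partners of the synthetases, AIMP1, a scaffold protein of the multisynthetase complex, rose. It had 68.9, 70.4 and 67.7 CPM in sh-NC and 80.1, 83.9 and 80.3 CPM in sh-LINC01977 libraries. The groups were apart (log2 fold change 0.24, adjusted p = 0.0220, edgeR's quasi-likelihood test), but the call was lost when any 1 library was left out, with adjusted p values of 0.0520 to 0.0732 by edgeR. The other scaffold genes were not called, with EEF1E1 at 0.22 (adjusted p = 0.0571, edgeR) and AIMP2 at -0.054 (adjusted p = 0.755, edgeR), whose sign changed with scaling.

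Elongation factors include the carrier that takes charged tRNA to the ribosome. They had 3 calls among 6 cytosolic genes, beside 15.1% of all tested genes. EEF1A2, the form of the tRNA carrier found mostly in muscle and neurons, rose from 13.6, 13.0 and 11.2 CPM in sh-NC to 36.9, 40.8 and 34.7 CPM in sh-LINC01977 libraries. Every sh-LINC01977 library was far above every sh-NC library (log2 fold change 1.57, SE 0.11, adjusted p = 6.9e-04, edgeR). EEF1A1, the far more abundant form of the carrier, averaged 11073 CPM in sh-NC and 10252 CPM in sh-LINC01977 libraries. It was not called (log2 fold change -0.11, adjusted p = 0.541, edgeR). EEF1B2, a subunit of the exchange factor, fell by 0.32 on the log2 scale, and EEF2, the translocase, fell by 0.30. Of 4 mitochondrial elongation factors, GFM2, which acts in ribosome recycling, rose by 0.31 (adjusted p = 0.0323, edgeR), and the other 3 were not called. The GFM2 call was lost when any library but the third sh-NC library was left out (adjusted p up to 0.101, edgeR).

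Genes of tRNA maturation and export had 0 calls among 18 by edgeR, beside 15.1% of all tested genes. At an unadjusted p under 0.05 by edgeR there were 4, beside 30.5% of all tested genes. Amino acid sensing genes had 0 calls among 8, with 1 at an unadjusted p under 0.05, beside the same shares. MYC, a transcription factor placed in that list, had 173, 177 and 169 CPM in sh-NC and 159, 161 and 7.24 CPM in sh-LINC01977 libraries. The third sh-LINC01977 library thus stood far from the other libraries for MYC. The MYC log2 fold change was -0.67 with an SE of 0.89 (adjusted p = 0.659, edgeR), and -0.12 without that library (adjusted p = 0.202, edgeR). Without the same library TARS was still called, with a log2 fold change of -0.26. XPOT, the nuclear export receptor for tRNA, had a log2 fold change of -0.18 (adjusted p = 0.0560, edgeR). Of 12 genes of the interferon-gamma response, listed because WARS is one of its targets, 7 were tested and 2 rose, beside 7.05% of all tested genes. GBP2, a guanylate-binding protein, rose by 0.57 and PSMB8, an immunoproteasome subunit, by 0.49 on the log2 scale. The GBP2 call was lost without the first or the second sh-NC library or without the second or the third sh-LINC01977 library (adjusted p up to 0.0635, edgeR), and the PSMB8 call without the first sh-NC library or any 1 sh-LINC01977 library (adjusted p up to 0.0861, edgeR).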

How the data were processed

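RNA was measured in 3 sh-NC and 3 sh-LINC01977 HepG2 libraries, extracted with TRIzol and run on the Illumina HiSeq platform. The files the authors deposited hold raw read counts and FPKM values per gene, with KEGG annotation. Per the labels the build is hg38, and the submitters' processing notes name bcl2fastq 2.0, HISAT2, StringTie, DESeq2 and limma without roles. The annotation and the strand setting are not given in the sources used here. By GENCODE 29 coordinates, 40 of 44 members have the same start and end.

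For the main comparison the quasi-likelihood test of edgeR 4.0.16 (R 4.3.3, TMM factors) was applied to the counts of 13452 genes, those whose mean FPKM was 0.5 or more, and p-values were adjusted by the Benjamini-Hochberg method. The test was checked on simulated data with larger changes than those of the called members. That check does not show how often changes of their size are found. The values of 1 member are not reported here, and it enters counts and summaries only. The members, lists and tests were chosen with earlier results of these data known. Named genes are called members, their partners for the same amino acid, the most abundant members, and up to 5 called genes per related list. SARS, GATC, PSTK, WARS, WARS2, uncalled genes of the related lists, and MTHFD2 and DDIT3, which the limit of 5 leaves out, were named after their values were seen. Alternatives used limma 3.58.1 on log2(FPKM + 0.1) or log2(FPKM + 1), DESeq2 1.42.0, other scalings and filters, counts divided by 4, a replicate block, and leaving out each library.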

Additional observations from a re-analysis of the deposited data

How the results depend on the processing

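TARS was called in all 15 alternatives, with log2 fold changes of -0.26 to -0.18 and adjusted p values of up to 0.0459 by edgeR, limma or DESeq2. SEPSECS was called in 9 of 15, and no member outside the 3 called ones was called in any. A replicate block gave 1390 calls among all genes in place of 2033. It ended the calls of SEPSECS (log2 fold change 0.45, adjusted p = 0.0540), AIMP1 (0.0548), DDIT3 (0.0685), GFM2 (0.0746) and MTHFD2 (0.108, all by edgeR). Deviations from the group means correlated at -0.034, 0.0051 and 0.061 between same-numbered libraries and at -0.054 to 0.052 between the others. With 3 libraries per group these values cannot settle whether same-numbered libraries share a culture or batch.

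Scaling set the sign of the cytosolic median, while the mitochondrial one stayed positive under every scaling tried and was -0.0058 with no filter. With library totals, limma on log2(FPKM + 0.1) and limma on log2(FPKM + 1), the cytosolic median was 0.037, 0.035 and 0.033 and the mitochondrial one 0.074, 0.077 and 0.069. Among all genes, 1455 were then higher and 768 lower with library totals, and 1269 and 729 with limma, against 948 and 1085, and the median of all genes moved to 0.065 and 0.063. With 1 library left out, calls among all genes fell to between 1176 and 1398 with fewer samples in the fit, the cytosolic median ran from -0.043 to -0.0060, the mitochondrial one from -0.0021 to 0.062, and the count of lower ATF4 targets from 6 to 8.

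The sign changed in 13 members, all with a log2 fold change within 0.11 of 0. In the 3 settings above, in that order, MARS had 0.037, 0.035 and 0.033, CARS2 0.045, 0.041 and 0.030, EARS2 0.021, 0.016 and 0.014, FARSA 0.066, 0.065 and 0.062, VARS 0.064, 0.062 and 0.060, YARS 0.022, 0.021 and 0.020, and, outside the members, ASNS 0.052, 0.051 and 0.049 and AIMP2 0.012, 0.0052 and 0.0052. With a mean FPKM of at least 1, FARSA had 0.0076 and VARS 0.0060. With no filter, HARS had -0.0050, MTFMT -0.011, RARS -0.0026 and VARS2 -0.0058. With the replicate block, FARSA had 0.00087 and MTFMT -0.0057, and with counts divided by 4 FARSA had 0.00021. With 1 library left out, values ran from -0.055 to 0.0047 for MARS, -0.075 to 0.048 for CARS2, -0.15 to 0.023 for EARS2, -0.012 to 0.043 for EPRS, -0.035 to 0.035 for FARSA, -0.0079 to 0.024 for HARS, -0.11 to 0.11 for MTFMT, -0.0075 to 0.097 for NARS2, -0.20 to 0.0049 for QARS, -0.061 to 0.049 for RARS, -0.038 to 0.034 for VARS, -0.080 to 0.10 for VARS2, -0.067 to 0.057 for ASNS, and -0.15 to 0.0055 for AIMP2. EEF1E1 was called in 6 alternatives (adjusted p 0.0252 to 0.0472) and XPOT in 2 (0.0319 with DESeq2, 0.0406 without the second sh-LINC01977 library).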
